A study of Oryctolagus cuniculus with 30 samples.

Results

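The 37 genes described here are cell cycle and proliferation genes, chosen by symbol from a gene table of 31346 rows. All 37 were found in the counts and all 37 passed the filter on low counts. The filter left 17770 genes to test, or 17815 in the comparisons with a batch term. They were followed by RNA sequencing in the vocal fold mucosa of 15 rabbits (New Zealand white) in 5 groups of 3, where each fold, left and right, gave its own library (30 libraries). Control rabbits had no injury and no injection. In the other 4 groups the superficial mucosa of both folds had been stripped. The injury_only rabbits then received no injection. In the remaining 3 groups, both folds were injected with 20 µL of material 7 days after the injury: collagen type I (Col1), or a hydrogel labelled VFLP (man) or VFLP (au), written here VFLP_man and VFLP_au, which the series title describes as derived from vocal fold lamina propria. Tissue was collected 28 days after treatment, and the labels give no collection time for control. The starting point of the 28 days is not known for injury_only, which received no injection, so its time since injury may differ from that of the injected groups. No earlier time was sampled.

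A cell that divides first licenses its replication origins and copies its DNA in S phase, then condenses, aligns and separates its chromosomes in mitosis and divides its cytoplasm. Transcripts of this machinery are low in resting cells. Those of replication genes are induced by E2F factors near S phase, and those of mitotic genes by FOXM1 and MYB-MuvB complexes later in the cycle. In the stratified squamous epithelium that covers the vocal fold, most dividing cells lie in the basal layers, while fibroblasts of the lamina propria divide rarely unless the tissue is injured.

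The gene reads of a library numbered 14.2 to 31.9 M (median 22.7 M), of which 1186 to 72580 fell on the 37 members, or 0.00837% to 0.256% of gene reads (median 0.0787%). No member was at 0 in any library. Levels below are counts scaled to a common library total (CPM) after TMM scaling, with the 2 folds of an animal summed and the SD taken over 3 animals, and they are compared within a gene alone because transcript lengths were not available. In tissue RNA, fewer dividing cells and less RNA per dividing cell cannot be told apart. All control libraries and 5 of the 6 injury_only libraries belong to batch C, and the other injury_only library, with all injected ones, to batch D. Group and batch can therefore not be told apart in comparisons of an injected group with control or injury_only.

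One library stood apart before any comparison. The right fold of control animal 2 had the lowest depth and the fewest member reads, with 15 members under 10 reads and a single read on KIF2C, a kinesin that depolymerises microtubules. Its mean log2 CPM over the members was 0.95, against 3.72 in the left fold of the same animal. The right folds of control animals 1 and 3 were lower than the left as well, at 3.94 against 4.38 and at 2.45 against 4.02, and the right fold was lower in 34, 37 and 36 of 37 members in control animals 1, 2 and 3. Reads on the 7 basal epithelium markers found of 8 (among them KRT5, KRT14 and KRT15) were also lower in the right fold of each control animal. The basal markers took 0.476% of gene reads in the left and 0.229% in the right fold of control animal 1, 0.157% and 0.0234% in animal 2, and 0.406% and 0.0994% in animal 3. Their part in the lower member level was not tested.

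**Figure D1:**
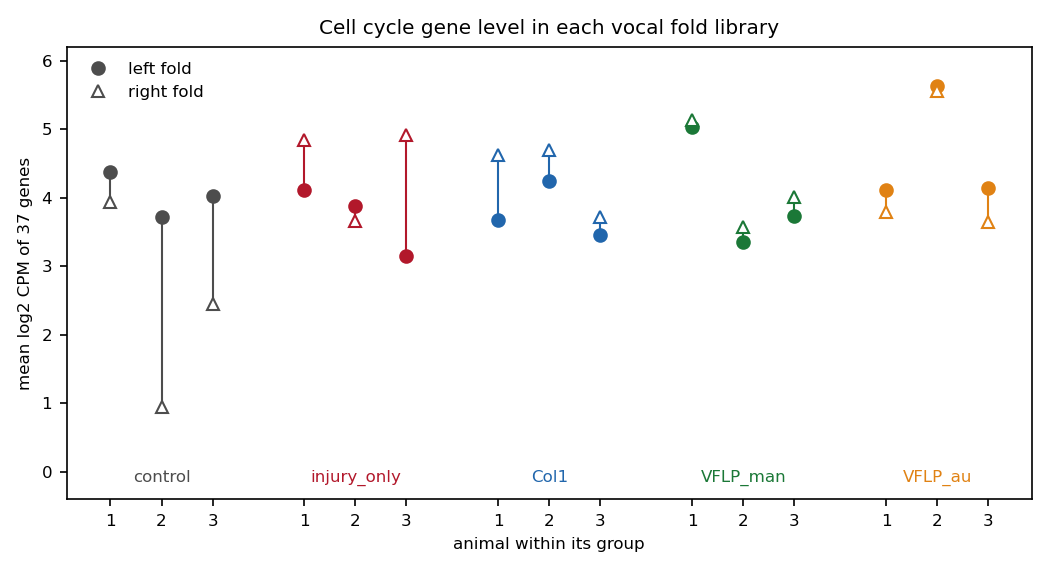
Mean log2 CPM of the 37 cell cycle genes in each library (y axis) for the 3 animals of each group (x axis), with filled circles for left and open triangles for right folds of an animal joined by a line. The right fold of control animal 2 is lowest at 0.95, and both folds of VFLP_au animal 2 (5.63 and 5.55) and of VFLP_man animal 1 (5.03 and 5.13) are higher than all other libraries.

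Among injured animals, both folds of the same animal were close in VFLP_au animal 2, at 5.63 and 5.55, and in VFLP_man animal 1, at 5.03 and 5.13. In injury_only animal 3 they were far apart, at 3.15 in the left and 4.92 in the right fold, with all 37 members higher on the right. The basal marker share there was 0.177% on the left and 0.363% on the right. Injury_only animal 1 had basal shares of 0.246% on the left and 0.365% on the right, with all 37 members higher on the right. In Col1 animal 1 the shares were 0.307% and 0.547%, also with all 37 higher on the right. In VFLP_au animal 3 they were 0.433% and 0.220%, with 36 members lower on the right. The basal share and most members differed in opposite directions only in Col1 animal 2, VFLP_man animal 3 and VFLP_au animal 2. Col1 animal 2 had all 37 members higher on the right, with basal shares of 0.342% on the left and 0.308% on the right. VFLP_man animal 3 had 35 members higher on the right, with basal shares of 0.496% and 0.465%. VFLP_au animal 2 had 28 members lower on the right, with basal shares of 0.470% and 0.479%. The relation was not tested.

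Animals of the same group differed widely. VFLP_au animal 2 had the highest level of all 15 animals in 37 of 37 members. VFLP_man animal 1 was the second highest in 32 members, injury_only animal 1 in 3 and Col1 animal 1 in 2. At the other end, control animal 2 was the lowest of the 15 animals in 25 members, VFLP_man animal 2 in 5, control animal 3 in 4 and Col1 animal 3 in 3. Relative to the mean of 15 animals on the log2 scale, the members stood at 1.01, 0.54 and 0.69 times that mean in control animals 1 to 3, at 1.31, 0.78 and 1.17 in injury_only, at 1.16, 1.27 and 0.69 in Col1, at 1.93, 0.63 and 0.84 in VFLP_man, and at 0.89, 2.77 and 0.87 in VFLP_au. In both hydrogel groups a single animal was therefore high while the other two lay below the mean of all animals. Over the 37 members, the highest animal exceeded the lowest by 2.91-fold (PCNA) to 10.9-fold (KIF2C), with a median of 5.89-fold. The SD within groups was 0.39 to 0.83 on the log2 scale (median 0.72). The range of the 5 group means, a different measure of spread, was 0.42 to 1.47 (median 0.85).

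The group mean of log2 CPM was highest in VFLP_au for 35 of 37 members. The exceptions were ANLN, highest in VFLP_man, and TOP2A, highest in injury_only. It was lowest in control for 33 members, while MCM2, MCM4 and RRM2 were lowest in VFLP_man and ANLN in injury_only. These orders are descriptions of the group means, and the tests of each pair of groups are given further on.

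**Figure D2:**
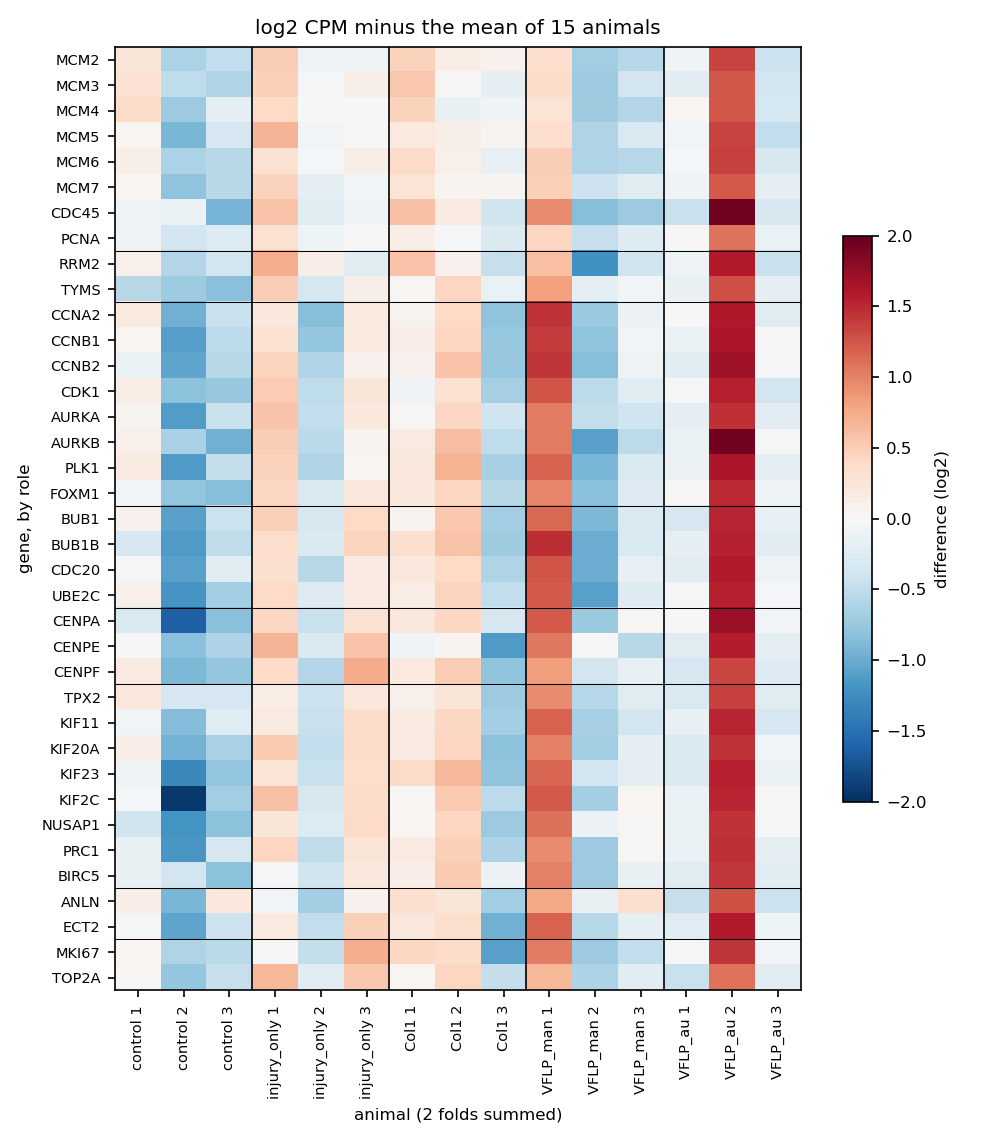
Difference of each animal's log2 CPM from the mean of 15 animals (colour, log2 units, red above and blue below) for the 37 genes in rows, grouped by role, and the 15 animals in columns, grouped by treatment. VFLP_au animal 2 is highest in all 37 rows and VFLP_man animal 1 second highest in 32, and control animal 2 is lowest in 25.

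The 8 replication members act at the replication origin and fork: MCM2 to MCM7 form the helicase, CDC45 activates it and PCNA is the sliding clamp of the polymerases. MCM2 stood at 46.8, 25.4 and 27.9 CPM in the control animals, at 55.6, 36.6 and 36.7 in injury_only, at 54.0, 43.6 and 42.0 in Col1, at 49.6, 24.4 and 26.6 in VFLP_man, and at 36.98, 101 and 29.3 in VFLP_au. PCNA stood at 79.6, 64.4 and 69.4 CPM in control, at 104, 78.9 and 84.5 in injury_only, at 91.8, 81.9 and 68.3 in Col1, at 113, 61.1 and 70.0 in VFLP_man, and at 83.6, 177 and 76.6 in VFLP_au. Every pair of groups overlapped in MCM2, and in both genes VFLP_au animal 2 lay far above the other animals. The replication genes varied less between animals than the mitotic ones, with a median SD within groups of 0.55 on the log2 scale against 0.81 for cyclins and kinases. VFLP_man animal 1 stood at 1.37 times the 15-animal mean in the replication genes and at 2.32 times in the cyclins and kinases, while VFLP_au animal 2 stood at 2.54 and 3.07 times. MCM4 and MCM6 had means of 90.7 ± 55.2 and 78.0 ± 52.8 CPM in VFLP_au against 54.2 ± 21.8 and 49.2 ± 22.8 in VFLP_man (SD, n = 3). CDC45, the member of this role with the widest span, ranged over 7.31-fold among animals, from 1.57 to 11.48 CPM.

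RRM2, a subunit of ribonucleotide reductase, and TYMS, thymidylate synthase, supply nucleotides for DNA synthesis. TYMS stood at 14.3, 12.9 and 11.8 CPM in the control animals, at 29.7, 16.6 and 22.8 in injury_only, at 21.4, 28.3 and 19.2 in Col1, at 36.98, 18.5 and 20.4 in VFLP_man, and at 18.9, 51.2 and 18.6 in VFLP_au. All 12 injured animals thus had more TYMS reads, relative to all gene reads, than every control animal, and the 4 injured groups overlapped one another. TYMS had an SD within groups of 0.50 on the log2 scale and group means of log2 CPM from 3.70 in control to 4.72 in VFLP_au. RRM2 stood at 34.7, 21.5 and 24.7 CPM in control, at 53.1, 35.4 and 27.8 in injury_only, at 47.7, 34.0 and 23.5 in Col1, at 48.7, 13.9 and 24.3 in VFLP_man, and at 30.0, 97.0 and 23.8 in VFLP_au, so that its groups overlapped.

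CDK1 and its partners cyclin A2 (CCNA2) and cyclins B1 and B2 (CCNB1, CCNB2) drive entry into mitosis, AURKA, AURKB and PLK1 are mitotic kinases, and FOXM1 is a transcription factor of the late cycle. CDK1 stood at 16.9, 8.59 and 8.99 CPM in control, at 21.7, 10.7 and 18.1 in injury_only, at 14.5, 18.9 and 9.57 in Col1, at 36.5, 10.6 and 12.9 in VFLP_man, and at 14.8, 44.6 and 11.6 in VFLP_au. CCNB1 stood at 23.7, 10.7 and 15.99 CPM in control, at 28.5, 13.5 and 26.5 in injury_only, at 25.3, 31.1 and 13.6 in Col1, at 60.6, 13.2 and 22.1 in VFLP_man, and at 21.0, 70.4 and 22.8 in VFLP_au. Both genes had 1 high animal in each hydrogel group, with the other animals of these groups inside the range of control. AURKB ranged from 2.66 CPM in VFLP_man animal 2 to 21.4 CPM in VFLP_au animal 2, a span of 8.02-fold. PLK1 averaged 10.5 ± 4.64 CPM in control and 22.3 ± 17.2 in VFLP_au, and FOXM1 6.07 ± 1.99 and 13.8 ± 9.30 (SD, n = 3). For both, the SD of the hydrogel group exceeded its difference from control.

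BUB1 and BUB1B (BubR1) belong to the spindle checkpoint, and CDC20 and UBE2C activate and serve the anaphase-promoting complex that ends it. The highest animal exceeded the lowest by 6.11-fold to 6.68-fold in these 4 genes. The control mean of BUB1B was 7.12 ± 1.91 CPM, against 12.6 ± 3.19 for injury_only, 12.2 ± 4.96 for Col1, 15.0 ± 13.6 for VFLP_man and 16.9 ± 12.8 for VFLP_au (SD, n = 3). It had the widest SD within groups of all 37 members, 0.83 on the log2 scale.

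CENPA, the histone H3 variant of centromeres, and the kinetochore proteins CENPE and CENPF form the next role. CENPA stood at 4.69, 1.87 and 3.25 CPM in control, at 7.74, 4.24 and 7.18 in injury_only, at 6.75, 7.70 and 4.57 in Col1, at 13.5, 3.46 and 5.87 in VFLP_man, and at 5.85, 19.3 and 5.59 in VFLP_au. All VFLP_au animals lay above all control animals, while each of the other injured groups overlapped with control through control animal 1. CENPA had the widest range of group means of all 37 members, 1.47 on the log2 scale. CENPE stood at 6.16, 3.47 and 4.05 CPM in control, at 9.93, 5.07 and 9.20 in injury_only, at 5.88, 6.44 and 2.81 in Col1, at 12.8, 6.19 and 4.21 in VFLP_man, and at 5.20, 18.3 and 5.44 in VFLP_au. The lowest CENPE value of all animals was in Col1, not in control.

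The next 8 members build the spindle and its midzone: TPX2, the kinesins KIF11, KIF20A, KIF23 and KIF2C, the bundling proteins NUSAP1 and PRC1, and BIRC5 (survivin) of the chromosomal passenger complex. NUSAP1 stood at 15.4, 8.82 and 11.53 CPM in control, at 23.9, 16.8 and 26.5 in injury_only, at 20.9, 27.4 and 12.3 in Col1, at 43.4, 18.7 and 20.7 in VFLP_man, and at 18.4, 55.5 and 19.9 in VFLP_au. Only Col1 animal 3 kept the injured groups from lying wholly above control in NUSAP1. KIF2C stood at 6.28, 1.69 and 3.97 CPM in control, at 9.58, 5.12 and 8.24 in injury_only, at 6.51, 9.26 and 4.45 in Col1, at 14.9, 4.02 and 6.61 in VFLP_man, and at 5.89, 18.4 and 6.49 in VFLP_au, and each injured group overlapped with control. TPX2 had the narrowest range of group means of all 37 members, 0.42 on the log2 scale, below its SD within groups of 0.64.

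ANLN (anillin) and ECT2, which activates RhoA, act in cytokinesis. ANLN stood at 40.8, 19.7 and 43.1 CPM in control, at 35.5, 23.2 and 39.1 in injury_only, at 46.4, 43.9 and 22.9 in Col1, at 62.6, 33.5 and 46.2 in VFLP_man, and at 26.9, 89.1 and 27.5 in VFLP_au. Here the control group was not the lowest, and 2 of 3 control animals lay above 2 of 3 VFLP_au animals. ECT2 averaged 9.22 ± 3.15 CPM in control and 20.0 ± 15.3 in VFLP_au (SD, n = 3).

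MKI67, which encodes the Ki-67 antigen of cycling cells, coats mitotic chromosomes, and TOP2A untangles DNA before they separate. MKI67 stood at 12.6, 8.04 and 8.42 CPM in control, at 12.2, 8.77 and 20.1 in injury_only, at 16.3, 15.7 and 5.75 in Col1, at 24.8, 7.33 and 8.68 in VFLP_man, and at 11.998, 32.8 and 11.7 in VFLP_au. TOP2A stood at 48.4, 27.9 and 34.4 CPM in control, at 75.2, 40.5 and 69.1 in injury_only, at 48.8, 64.2 and 34.1 in Col1, at 75.3, 30.9 and 40.7 in VFLP_man, and at 35.1, 101 and 40.6 in VFLP_au. All 5 groups overlapped in both genes, and 2 of 3 VFLP_au animals and 2 of 3 VFLP_man animals lay within or below the control range of MKI67.

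**Figure D3:**
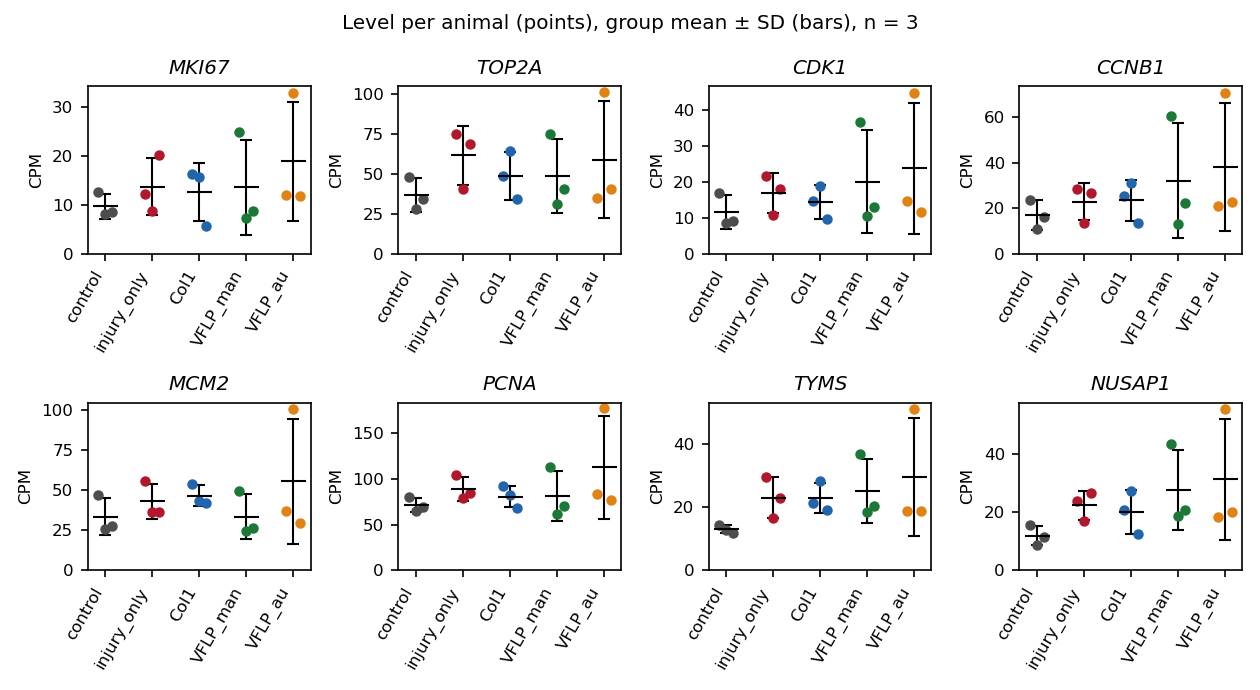
CPM (y axes, from 0) of MKI67, TOP2A, CDK1, CCNB1, MCM2, PCNA, TYMS and NUSAP1 in the 5 groups (x axes), with a point for each animal and a bar for the group mean ± SD (n = 3). The wide bars of VFLP_man and VFLP_au come with 1 high animal in each, as for CDK1 at 36.5 and 44.6 CPM, and the 3 control points of TYMS (11.8 to 14.3) lie below all others.

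Injury without injection was compared with no injury to ask what remained of the response to stripping. No member passed the threshold (edgeR quasi-likelihood test, Benjamini-Hochberg adjusted p under 0.05), with 0 of 37 at an unadjusted p under 0.05 and 0 by DESeq2 and by limma voom, where 22.1% of all genes tested passed. Unadjusted, 6556 of all 17815 genes were under 0.05. The right fold of injury_only animal 1, the library of batch D, carried no weight in this comparison. Fitted values were above 0 in 35 of 37 members, with a median of 0.38 on the log2 scale against 0.02 for all genes. TYMS was 1.65-fold higher in injury_only (log2 fold change 0.72, SE 0.38, adjusted p = 0.19), NUSAP1 1.68-fold (0.75, SE 0.47, adjusted p = 0.27) and CENPA 1.82-fold (0.86, SE 0.57, adjusted p = 0.30). TYMS, NUSAP1 and BUB1B were the 3 members with all injury_only animals above all control animals, against 20.4% of all genes. The SE of the members had a median of 0.55, so that a difference near 2-fold was within about 2 SE for most of them. The fold sampled turned the direction: the median over members was -0.30 in left folds alone and 1.38 in right folds alone. The right-fold value rested on injury_only animals 2 and 3, and the left-fold value on injury_only animals 1, 2 and 3.

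Each injected material was compared with injury_only to ask what the injection added. For Col1, 0 of 37 members passed, with 0 at an unadjusted p under 0.05 and 0 by DESeq2 and limma voom, and the share of all genes was 0%. Unadjusted, 2530 of all 17770 genes were under 0.05. The median over members was -0.04 on the log2 scale (all genes 0.00), and with a batch term it was -0.60. CENPE was at 0.626 times its injury_only level (log2 fold change -0.68, SE 0.55, adjusted p = 0.58) and TOP2A at 0.795 times (-0.33, SE 0.44, adjusted p = 0.76), while BIRC5 was at 1.20 times (0.26, SE 0.50, adjusted p = 0.84).

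For VFLP_man, 0 of 37 members passed by edgeR, with 0 at an unadjusted p under 0.05 and 0 by DESeq2 and limma voom, against 1.06% of all genes. Unadjusted, 3051 of all 17770 genes were under 0.05. The median was 0.13 (all genes 0.00), and the roles lay on different sides of 0: all 8 replication genes were below 0 with a median of -0.31, and all 8 cyclins, kinases and FOXM1 were above 0 with a median of 0.24. ANLN was at 1.46 times its injury_only level (0.54, SE 0.48, adjusted p = 0.63), CCNA2 at 1.48 times (0.56, SE 0.62, adjusted p = 0.72) and MCM4 at 0.750 times (-0.42, SE 0.41, adjusted p = 0.68). Without VFLP_man animal 1 the median over members was -0.58, and with a batch term it was -0.46.

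For VFLP_au, 0 of 37 members passed by edgeR, with 0 at an unadjusted p under 0.05 and 0 by DESeq2 and limma voom, and again 0% of all genes did. Unadjusted, 2289 of all 17770 genes were under 0.05. The median was 0.48 (all genes 0.01) and 36 of 37 members were above 0, TOP2A being the exception. AURKB was at 1.81 times its injury_only level (0.86, SE 0.64, adjusted p = 0.54), CCNA2 at 1.71 times (0.77, SE 0.62, adjusted p = 0.57) and CCNB1 at 1.67 times (0.74, SE 0.61, adjusted p = 0.58). Without VFLP_au animal 2 the median was -0.29, and AURKB, CCNA2 and CCNB1 were at -0.14, -0.040 and -0.059 on the log2 scale. With a batch term the median was -0.091.

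Compared with uninjured mucosa, the injected groups had higher fitted levels in nearly all members, of which TYMS and NUSAP1 passed the test, in VFLP_au alone. These comparisons share the control animals, and the median log2 fold change of all genes was itself 0.11 to 0.13 above 0 under TMM scaling and 0.067 to 0.093 with DESeq2 size factors. In VFLP_au, 2 of 37 members passed, both higher, where 10.8% of all genes passed as higher and 27.5% in either direction. These were TYMS, 2.28-fold higher (log2 fold change 1.19, SE 0.40, adjusted p = 0.042), and NUSAP1, 2.62-fold higher (1.39, SE 0.47, adjusted p = 0.046). CENPA was 3.11-fold higher and did not pass (1.64, SE 0.59, adjusted p = 0.055). At an unadjusted p under 0.05 there were 6 members, which also included MCM7, FOXM1 and KIF2C, against 7205 of all 17770 genes. The median over members was 1.03, all 37 were above 0, and TYMS, BUB1B, CENPA and NUSAP1 had all VFLP_au animals above all control animals, against 20.8% of all genes.

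Both calls were lost when single animals were left out. TYMS was not past the threshold without VFLP_au animal 2 (adjusted p = 0.24) or without control animal 1 (0.066), 2 (0.14) or 3 (0.11). NUSAP1 was not without VFLP_au animal 2 (0.26) or control animals 2 (0.18) or 3 (0.11). Without VFLP_au animal 2 the log2 fold changes fell to 0.53 for TYMS and 0.68 for NUSAP1. Without these control animals they stayed between 1.11 and 1.25 for TYMS and at 1.18 and 1.35 for NUSAP1. Without VFLP_au animal 2 the median over members was 0.22, where the other 2 VFLP_au animals still had TYMS at 18.9 and 18.6 CPM and all 3 control animals at 14.3 or below. In left folds alone no member passed, where 1706 of all genes did, and the median was 0.78. In right folds alone 4 passed, where 5710 of all genes did, and it was 1.69. With a batch term the median was 0.23, TYMS had an adjusted p of 0.83 and NUSAP1 of 0.79, and 0 of all genes passed in this comparison. That term rests on 1 injury_only library.

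In VFLP_man against control, 0 of 37 members passed by edgeR and limma voom and 1 by DESeq2. Of all genes, 37.3% (6623) passed by edgeR, and 7706 genes passed by DESeq2. At an unadjusted p under 0.05 there were 2, NUSAP1 and TYMS, against 8431 of all 17770 genes. NUSAP1 was 2.31-fold higher (1.21, SE 0.47, adjusted p = 0.061), TYMS 1.95-fold (0.96, SE 0.39, adjusted p = 0.073) and CENPA 2.32-fold (1.21, SE 0.58, adjusted p = 0.12). The median over members was 0.65, with 0.19 for the replication genes and 0.74 for the cyclins and kinases. NUSAP1 and TYMS had all VFLP_man animals above all control animals, against 24.6% of all genes. Without VFLP_man animal 1 the median over members was -0.014, and it was 0.24 in left folds alone, 1.48 in right folds alone and -0.072 with a batch term.

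In Col1 against control, 0 of 37 members passed by edgeR, 0 at an unadjusted p under 0.05 and 0 by DESeq2 and limma voom, where 32.1% of all genes passed. Unadjusted, 7681 of all 17770 genes were under 0.05. TYMS was 1.77-fold higher (0.82, SE 0.39, adjusted p = 0.13), CENPA 1.93-fold (0.95, SE 0.58, adjusted p = 0.23) and NUSAP1 1.69-fold (0.76, SE 0.47, adjusted p = 0.24). The median over members was 0.47, and MCM5, MCM7, TYMS and BIRC5 had all Col1 animals above all control animals, against 22.8% of all genes. As in injury_only, the fold turned the direction, with a median of -0.30 in left folds and 1.44 in right folds, and it was -0.28 with a batch term.

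**Figure D4:**
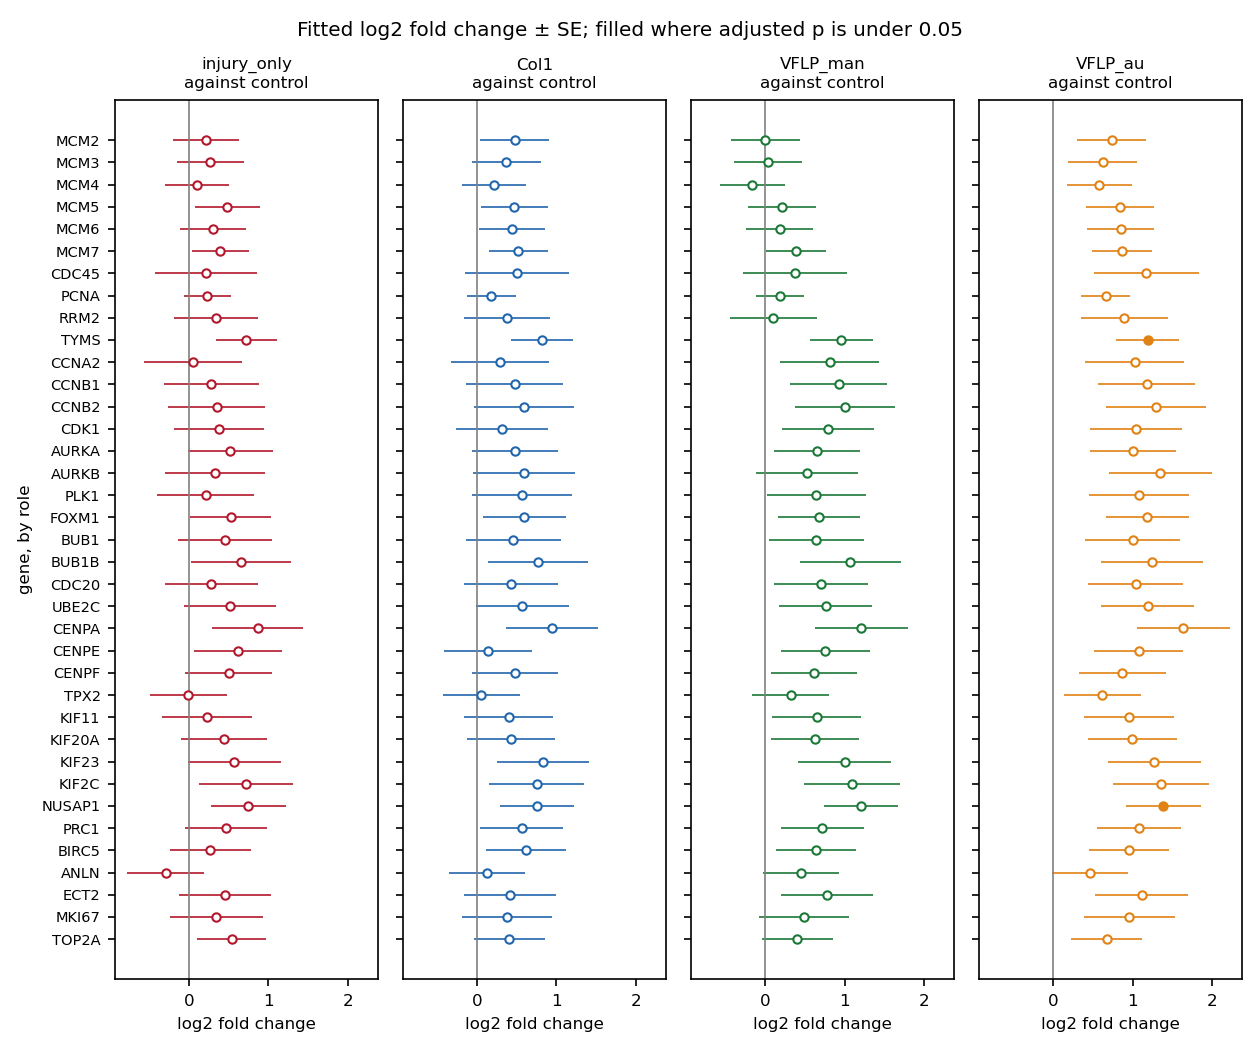
Fitted log2 fold change ± SE (x axes) of the 37 genes (y axis, by role) for injury_only, Col1, VFLP_man and VFLP_au against control, with points filled where the adjusted p was under 0.05. TYMS at 1.19 and NUSAP1 at 1.39 in VFLP_au are the filled points, and the medians are 0.38, 0.47, 0.65 and 1.03 from left to right.

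Between materials, no member passed by edgeR, DESeq2 or limma voom in any of the 3 comparisons, and none had an unadjusted p under 0.05. All genes together gave 0% for VFLP_man against Col1, 0% for VFLP_au against Col1 and 0.0505% for VFLP_man against VFLP_au. Unadjusted, 1832, 829 and 1489 of all 17815 genes were under 0.05, in that order. In VFLP_man against Col1 the median over members was 0.17, with CENPE at 1.54 times (0.62, SE 0.55, adjusted p = 0.74), NUSAP1 at 1.36 times (0.45, SE 0.47, adjusted p = 0.79) and MCM2 at 0.721 times its Col1 level (-0.47, SE 0.42, adjusted p = 0.74). In VFLP_au against Col1 all 37 members were above 0 with a median of 0.54, and the 3 of smallest p were CENPE at 1.91 times (0.94, SE 0.55), PCNA at 1.40 times (0.48, SE 0.30) and NUSAP1 at 1.55 times (0.63, SE 0.47), each with an adjusted p of 0.995. In VFLP_man against VFLP_au all 37 were below 0 with a median of -0.35. The helicase subunits had the smallest p there, with MCM4 at 0.597 times its VFLP_au level (-0.74, SE 0.40, adjusted p = 0.69), MCM2 at 0.602 times (-0.73, SE 0.42, adjusted p = 0.71) and MCM6 at 0.630 times (-0.67, SE 0.42, adjusted p = 0.73). The single high animals set these medians. Without VFLP_au animal 2 the median was -0.25 against Col1 and 0.43 for VFLP_man against VFLP_au, and without VFLP_man animal 1 it was -0.49 against Col1 and -1.04 against VFLP_au.

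Other genes of the cycle were taken from lists of replication genes (32 tested), mitosis genes (46), G1 cyclins, kinases and E2F factors (12), and cell cycle inhibitors and quiescence genes (19). VFLP_au animal 2 was the highest of 15 animals in 26 of 32 replication and 41 of 46 mitosis genes, and VFLP_man animal 1 the second highest in 12 of 32 replication and 38 of 46 mitosis genes. Control animal 2 was the lowest in 9 of 32 replication and 30 of 46 mitosis genes. In the inhibitors, VFLP_au animal 2 was highest in 4 of 19, and the relative level of the list lay between 0.88 and 1.14 of the mean in all 15 animals.

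Few of the replication and mitosis genes passed the test, against 22.1% of all genes in injury_only, 37.3% in VFLP_man and 27.5% in VFLP_au. Among replication genes, POLE, the catalytic subunit of DNA polymerase epsilon, rose 4.52-fold in injury_only against control (log2 fold change 2.18, SE 0.41, adjusted p = 0.0043), from 11.4, 6.58 and 12.05 CPM to 62.0, 44.6 and 22.7. POLE was the 1 gene of 32 called there, and in VFLP_au against control POLE (2.16-fold, adjusted p = 0.048) and GINS3 of the helicase complex (3.68-fold, 0.042) rose. Leaving out each of the 6 animals in turn ended the VFLP_au call of POLE in 6 cases and that of GINS3 in 5, with adjusted p from 0.053 to 0.21 for POLE and 0.073 to 0.16 for GINS3. In VFLP_man, RPA2, a subunit of the single-strand binding protein, fell to 0.738 times control (adjusted p = 0.044), a call lost without control animal 2 (0.13) or 3 (0.069) or VFLP_man animal 2 (0.13) or 3 (0.11). Among mitosis genes, PBK, a mitotic kinase, rose 3.59-fold in VFLP_au (adjusted p = 0.031), lost without control animal 2 (0.13) or 3 (0.086) or VFLP_au animal 2 (0.17). In VFLP_man, PBK rose 3.03-fold (0.042) and securin (PTTG1) 2.57-fold (0.022). The PBK call was lost without control animal 2 (0.15) or 3 (0.10) or VFLP_man animal 1 (0.20) or 3 (0.053), and that of PTTG1 without control animal 2 (0.10) or VFLP_man animal 1 (0.079).

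Some inhibitors were called higher and others lower. CDKN2B, which encodes the CDK4 and CDK6 inhibitor p15, stood at 101, 52.4 and 64.3 CPM in control, at 105, 109 and 104 in injury_only, at 137, 127 and 157 in Col1, at 219, 175 and 190 in VFLP_man, and at 168, 176 and 165 in VFLP_au. Every injured animal lay above every control animal. CDKN2B rose 1.93-fold in Col1 (log2 fold change 0.95, SE 0.19, adjusted p = 0.0033), 2.68-fold in VFLP_man (1.42, SE 0.20, 0.00021) and 2.33-fold in VFLP_au (1.22, SE 0.19, 0.0016) against control. GAS1, a growth arrest gene of fibroblasts, stood at 15.5, 22.2 and 16.7 CPM in control, at 7.74, 12.6 and 12.1 in injury_only, at 5.18, 5.07 and 5.34 in Col1, at 2.54, 4.36 and 4.12 in VFLP_man, and at 11.2, 5.40 and 6.78 in VFLP_au. GAS1 fell to 0.287 times control in Col1 (adjusted p = 0.0013), 0.203 times in VFLP_man (0.00019) and 0.431 times in VFLP_au (0.012, and 0.0503 without VFLP_au animal 2). GAS1 was also the 1 gene of the 4 lists called against injury_only, at 0.340 times in VFLP_man (adjusted p = 0.043), a call that held in 7 of 17 alternatives. It was lost without injury_only animal 2 (0.15) or 3 (0.11) or VFLP_man animal 1 (0.17) or 3 (0.17), with limma voom (0.16), in right folds alone (0.88), with a batch term (log2 fold change -0.66, 0.88), with the replicate block (0.056), with the 2 groups alone (0.13) and with the basal covariate (0.067).

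CDKN1B, which encodes the CDK inhibitor p27, stood at 39.3, 55.9 and 40.7 CPM in control and between 26.1 and 36.3 CPM in all 12 injured animals. It fell to 0.596 times control in injury_only (log2 fold change -0.75, SE 0.14, adjusted p = 0.0043), 0.619 times in Col1 (0.0029) and 0.664 times in VFLP_au (0.0090). TOB1, an antiproliferative gene, fell to 0.627 times control in injury_only (adjusted p = 0.0081) and 0.639 times in VFLP_man (0.0051). BTG1, of the same family, rose 1.67-fold in injury_only (0.020), 1.64-fold in Col1 (0.018) and 1.99-fold in VFLP_man (0.0025). The BTG1 call in injury_only was lost without control animal 2 (0.063) or 3 (0.056) or injury_only animal 1 (0.085), and that in Col1 without control animal 3 (0.061) or Col1 animal 1 (0.051) or 2 (0.056). CCND3, the D-type cyclin 3, was the 1 gene of 12 in the G1 list called in any comparison, 2.12-fold higher in Col1 than in control (adjusted p = 0.017), and was lost without control animal 2 (0.077) or Col1 animal 1 (0.051) or 3 (0.067).

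Of the 19 inhibitors tested against control, injury_only had 1 higher (BTG1) and 2 lower (CDKN1B, TOB1), where 22.1% of all genes passed. Col1 had 4 higher, among them CDKN1A, CDKN2B and BTG1, and 4 lower (CDKN1B, RB1, LIN9 and GAS1), where 32.1% of all genes passed. VFLP_man had 3 higher, among them CDKN2B and BTG1, and 3 lower (CDKN1B, GAS1 and TOB1), against 37.3% of all genes, and VFLP_au 2 higher, among them CDKN2B, and 2 lower (CDKN1B and GAS1), against 27.5%. The list was not tested against other genes.

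Tissue marker shares differed between the groups as well. Skeletal muscle markers (11 of 16 listed were found) took 3.95 ± 0.955% of gene reads in control, and 1.13 ± 0.383%, 0.412 ± 0.191%, 0.157 ± 0.131% and 0.752 ± 0.305% in injury_only, Col1, VFLP_man and VFLP_au. In the same order, fibroblast markers took 0.223 ± 0.00560%, 0.138 ± 0.0322%, 0.0713 ± 0.0326%, 0.0741 ± 0.0207% and 0.108 ± 0.0363% (SD, n = 3), with 10 of 10 fibroblast markers found and no marker of either list at 0 over a whole group. Gland markers (7 of 8 found) took 0.292 ± 0.230%, 2.24 ± 0.658%, 0.882 ± 0.374%, 0.804 ± 0.965% and 0.657 ± 0.907% in the same order of groups. Ciliated markers (10 of 10) took 0.00290 ± 0.00413%, 0.0415 ± 0.0306%, 0.00681 ± 0.00669%, 0.0313 ± 0.0356% and 0.00980 ± 0.0103% in that order. T and NK cell markers (7 of 10) took 0.000186 ± 6.62e-05%, 0.000745 ± 0.000101%, 0.000463 ± 2.43e-05%, 0.000917 ± 8.10e-05% and 0.000752 ± 0.000293%. Endothelium markers (8 of 8) took 0.0413 ± 0.0201%, 0.0335 ± 0.0128%, 0.0196 ± 0.00230%, 0.0121 ± 0.00236% and 0.0163 ± 0.00527% (SD, n = 3). The part of these tissue shares in the differences of POLE, CDKN2B, GAS1, CDKN1B, TOB1 and BTG1 was not tested. With batch as a term, every call against control given above with its fold change was lost in the 3 injected groups. Those fits called 0 of all genes in Col1, 29 in VFLP_man and 0 in VFLP_au. The log2 fold changes of CDKN2B were then 0.81, 1.28 and 1.08 in that order (adjusted p = 0.35, 0.10 and 0.47), and those of GAS1 -0.82, -1.32 and -0.23 (0.49, 0.18 and 0.90). For TOB1, BTG1, PTTG1, PBK and RPA2 in VFLP_man, the adjusted p with the batch term was 0.42, 0.36, 0.48, 0.76 and 0.26. In left folds alone, the injury_only calls of POLE, CDKN1B, TOB1 and BTG1 were lost as well (0.15, 0.15, 0.15 and 0.22). The Col1 calls of GAS1, CDKN1B, CDKN2B, BTG1 and CCND3 were lost there too (0.17, 0.13, 0.17, 0.29 and 0.27). Of the hydrogel calls against control given with a fold change, CDKN2B in VFLP_man (0.0078) and VFLP_au (0.025) held in left folds. GAS1 in VFLP_man (0.00082) held as well, and the others were lost.

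The members were set beside the basal epithelium, the layer in which vocal fold epithelial cells divide. Basal markers took 0.235 ± 0.123% of gene reads in control, and 0.304 ± 0.0268%, 0.417 ± 0.0795%, 0.420 ± 0.0536% and 0.406 ± 0.0741% in injury_only, Col1, VFLP_man and VFLP_au (SD, n = 3). Per 100 basal marker reads, the members had 24.8, 31.5 and 20.0 reads in control animals 1 to 3, 41.4, 22.5 and 36.3 in injury_only, 23.9, 31.3 and 15.4 in Col1, 43.9, 17.0 and 17.0 in VFLP_man, and 19.8, 51.4 and 24.0 in VFLP_au. On this scale control animal 2 was no longer the lowest, and the group means were 25.4 ± 5.82, 33.4 ± 9.75, 23.5 ± 7.99, 26.0 ± 15.5 and 31.7 ± 17.2 in the same order, with all groups overlapping. VFLP_au animal 2, VFLP_man animal 1 and injury_only animal 1 stayed the 3 highest. With the basal marker level as a covariate, 0 members passed in VFLP_au against control, and TYMS had an adjusted p of 0.17 and NUSAP1 of 0.20. That fit called 2317 of all genes in this comparison, against 4884 without the covariate, so calls were lost among other genes too.

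**Figure D5:**
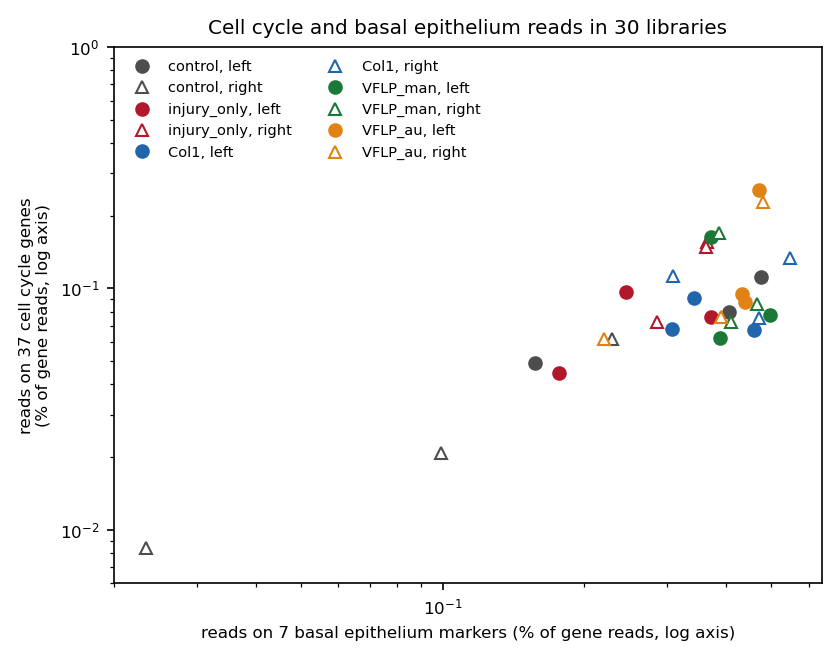
Share of gene reads on the 37 cell cycle genes (y axis, percent, log scale) against the share on 7 basal epithelium markers (x axis, percent, log scale) in 30 libraries, filled circles for left and open triangles for right folds. The control right folds of animals 2 and 3 are low on both axes (0.00837% at 0.0234% and 0.0209% at 0.0994%), and the 2 folds of VFLP_au animal 2 (0.256% and 0.228%) are highest on the y axis.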

How the data were processed

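RNA was sequenced as paired reads of 100 bases, from libraries made with the KAPA mRNA HyperPrep kit, per the labels' protocols. The authors deposited raw counts per gene from STAR 2.7.10b, per the submitters' processing notes. For the genome build and its annotation, nothing is given in the sources used here. The column counted on the second read's strand was taken, without its 4 rows that name no gene. RefSeq names matched all 37 members.

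Groups were compared by the quasi-likelihood F test of edgeR 4.0.16 in R 4.3.3, with TMM scaling, filterByExpr (minimum count 10) and Benjamini-Hochberg adjustment over all genes tested. The threshold was 0.05. All 5 groups entered each fit. The folds of an animal were summed (15 animals). The comparison of injury_only with control and those between materials had a batch term, with the folds of injury_only animal 1 kept apart (16 units). The SE is the log2 fold change over the square root of F, an approximation. The method was tested on simulated data. 

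The members and lists were chosen with earlier results of these data known. In each comparison the members past the threshold were named, or the 3 of smallest p where fewer than 3 passed, with levels of MKI67, TOP2A, CDK1, CCNB1, MCM2 and PCNA throughout, and up to 4 called genes of each other list by smallest p. Results of some genes that this rule takes are left out of the text. Other members were named for their range or group order after their values were seen. Alternatives tried were DESeq2 1.42.0, edgeR with DESeq2 size factors, a replicate block, all genes with a read, limma 3.58.1 voom on 30 libraries, left or right folds alone, unstranded counts, batch handled the other way, the 2 groups alone and each animal left out. Leaving out the right fold of control animal 2 and the basal marker level as a covariate were chosen after seeing the data. A search of promoters for motifs was planned and not run.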

Additional observations from a re-analysis of the deposited data

How the results depend on the processing

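Of the counts of members past the threshold, those of VFLP_au against control (2 members) depended most on the processing. The number of all genes past the threshold in each fit is in parentheses, against 4884 in the main fit. The count was 1 with DESeq2 size factors in edgeR (4829) and 4 in right folds alone (5710). It was 0 without the filter (4185), with limma voom on 30 libraries (4934), in left folds alone (1706) and with batch handled the other way (0). It was also 0 with the 2 groups alone (2670), without the right fold of control animal 2 (4472) and with the basal level as a covariate (2317). Leaving out each animal gave 0 to 3 members, with 0 without control animal 2, control animal 3 or VFLP_au animal 2. VFLP_man against control, with 0 members in the main fit, had 1 by DESeq2 (7706), 2 in right folds (7537) and 1 with unstranded counts (6681). Col1 against control, also with 0, had 4 in right folds (7762), 1 with unstranded counts (5767) and 1 with the 2 groups alone (3628). All 7 other counts stayed at 0 in each alternative run.

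The replicate numbers do not pair the samples: same-numbered animals of different groups correlated at -0.50 to 0.36 in their deviations, and 4 of 15 animals correlated best with their own number. With the replicate block, 0 members passed in VFLP_au against control, where 4465 of all genes did, and the other member counts stayed at 0.

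The median log2 fold change of the members changed sign as follows. In left folds alone it was -0.30 for injury_only against control, -0.30 for Col1 against control and 0.058 for Col1 against injury_only, and NUSAP1 was -0.019 in injury_only against control. In right folds it was -0.17 for VFLP_man against injury_only. With batch handled the other way it was -0.46 for VFLP_man and -0.091 for VFLP_au against injury_only, -0.28 for Col1 and -0.072 for VFLP_man against control, with ANLN at -0.030 and CCNA2 at -0.11 in VFLP_man against injury_only. VFLP_man against injury_only was -0.044 with limma voom and -0.081 with the basal covariate. Leaving out each animal, the median ranged from -0.24 to 0.18 for Col1 against injury_only, -0.58 to 0.37 for VFLP_man against injury_only, -0.29 to 0.73 for VFLP_au against injury_only, -0.49 to 0.44 for VFLP_man against Col1, -0.25 to 0.83 for VFLP_au against Col1, -0.014 to 0.95 for VFLP_man against control and -1.04 to 0.43 for VFLP_man against VFLP_au. Single genes ranged from -0.33 to 0.91 (CCNA2, VFLP_man against injury_only), -0.037 to 0.73 (NUSAP1, VFLP_man against Col1), -0.14 to 1.18, -0.040 to 1.07 and -0.059 to 1.01 (AURKB, CCNA2 and CCNB1, VFLP_au against injury_only), -0.0098 to 0.70 and -0.075 to 0.92 (PCNA and NUSAP1, VFLP_au against Col1), and -1.13 to 0.017 and -1.12 to 0.045 (MCM2 and MCM6, VFLP_man against VFLP_au). The sign changes among these in comparisons with VFLP_au came without VFLP_au animal 2. The cause was not tested. In the right fold of control animal 2, 15 members had under 10 reads, which limits their precision there.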

Other observations

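Gland and squamous markers were set beside the members by library. Gland and secretory markers took 0.0741% and 0.0494% of gene reads in the 2 folds of VFLP_au animal 2, and 0.0509% and 0.179% in those of VFLP_man animal 1, the animals with the highest member levels. In injury_only animal 3, the left fold had a gland share of 5.21%, a differentiated squamous share of 0.511% and a member share of 0.0446%, and the right fold 0.0668%, 3.26% and 0.148%. In VFLP_au animal 3 the left fold had 0.376%, 2.94% and 0.0951%, and the right fold 3.04%, 1.40% and 0.0615%. The 2 folds of VFLP_man animal 2, at 2.62% and 1.31% gland reads, had member shares of 0.0624% and 0.0729%. By contrast, the right fold of injury_only animal 1 had a gland share of 2.30% and a member share of 0.156%, and the right fold of control animal 2 was at 0.00893% and 0.00837%. These are values of single libraries, and the relation was not tested.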
